A study of Mus musculus with 6 samples.

Results

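Foxp3 and 8 other genes by which regulatory T cells are recognised (Ikzf2, Ikzf4, Ctla4, Nrp1, Lrrc32, Gpr83, Ebi3 and Tgfb1) were followed in effector CD4+ T cells sorted by the activity of the drug efflux pump Mdr1. The 9 genes were taken by name from a table of 23366 genes. T cells were given to Rag-deficient hosts, mice that cannot make lymphocytes, and the CD4+ effector cells were taken from the mesenteric lymph nodes 6 weeks later, with FVB/N as the strain background of both groups. Mdr1 pumps out the dye Rh123, so the Mdr1+ group (Rh123lo, 3 libraries) holds cells that cleared the dye and the Mdr1- group (Rh123hi, 3 libraries) cells that kept it. The labels enter Mdr1+ and Mdr1- under genotype, though both were sorted by dye; the host's Rag gene, sex and age and the subset of T cells transferred are not given in the labels, and nothing says whether the replicates came from separate mice, so the p-values may reflect technical spread only.

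Regulatory T cells are CD4+ T cells that restrain other T cells, and in transfer models of colitis in mice they hold back the effector cells that expand in a lymphocyte-free host. Foxp3 is the transcription factor that defines the lineage, Ikzf2 (Helios) and Ikzf4 (Eos) are Ikaros family zinc finger proteins found with it, and Ctla4, Nrp1, Lrrc32 and Gpr83 are surface proteins enriched on these cells. Ebi3 is a secreted cytokine subunit and Tgfb1 the main T cell form of transforming growth factor beta. Several of these genes, Ctla4 above all, are also switched on in activated conventional T cells, whereas Foxp3 in mice is largely kept to regulatory cells.

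Library depth ran from 2220691 to 20771456 counts in genes, and the Mdr1+ library of replicate 3 was the shallowest. The values of replicate 3 stand in the deposited table beside a differently sorted list of gene names and were first matched back, so each value of that replicate rests on this step. T cell markers were high throughout: 8 of 9 listed markers were in the table, and their summed level was 3743 to 4809 CPM (counts scaled to library size by the TMM method) in Mdr1+ and 3833 to 4404 CPM in Mdr1- libraries. Pf4 and Gp9 of platelets had 0 counts in every library. Itga2b, which made up all or nearly all of the sum of the 5 platelet markers, was at 5.48, 5.94 and 9.90 CPM in Mdr1+ replicates 1, 2 and 3, and at 3.68, 3.03 and 4.59 CPM in Mdr1- replicates 1, 2 and 3, with no overlap (edgeR adjusted p = 0.468). The 6 B cell markers summed to 1.22 to 12.7 CPM in Mdr1+ and 2.90 to 3.57 CPM in Mdr1- libraries, and the 6 stromal markers to 1.83 to 2.10 CPM in Mdr1+ and 6.96 to 8.82 CPM in Mdr1- libraries. Most of the stromal sum in Mdr1- libraries was Acta2 (Mdr1+ 0, 0.280 and 0, Mdr1- 4.35, 6.40 and 4.08 CPM in replicates 1, 2 and 3, edgeR adjusted p = 0.018). Col1a2, with 3 counts or fewer per library, was higher in Mdr1+ libraries with no overlap. Col1a1, Col3a1 and Pdgfrb overlapped between the groups, and Pdpn had 0 counts in every library. The 6 endothelial markers summed to 116 to 190 CPM in Mdr1+ and 118 to 131 CPM in Mdr1- libraries. Nearly all of it was Pecam1 (Mdr1+ 116, 115 and 190, Mdr1- 123, 115 and 128 CPM in replicates 1, 2 and 3). In the same order Cdh5 was at 0.332, 0.327 and 0.472 against 1.79, 2.42 and 1.87 CPM. Egfl7 was at 0.166, 0.234 and 0 against 0.335, 1.04 and 0.679 CPM. Emcn had 2 counts in Mdr1+ replicate 1 and 0 elsewhere, and Kdr and Tek had 0 in every library. The 8 monocyte, macrophage and neutrophil markers summed to 0.421 to 2.83 CPM in Mdr1+ libraries and to 1.64 to 51.6 CPM in Mdr1- libraries, and the highest sum was that of Mdr1- replicate 3. The 12 cell cycle markers summed to 620.9 to 763 CPM in Mdr1+ and 2428 to 3569 CPM in Mdr1- libraries, and 11 of them were lower in Mdr1+ cells past the threshold used below.

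The promoters shown are those of the gene nearest to 0 (Foxp3), of the gene with the highest level (Ctla4) and of the 1 gene of the 9 that passed a test, with replicate pairing (Ebi3). Each is the RefSeq window from 250 bases before to 50 bases after a start site, build GRCm38.p6, plus strand, written 5′ to 3′. RefSeq windows were found for 6 of the 9 genes, and for Foxp3 the first of its windows is shown. Capitals mark the letters TATAAA (the TATA box) and GGAAA (the core bound by NFAT factors), each searched on both strands, so that TTTCC is the second one on the other strand.
Foxp3, chrX:7579426-7579725: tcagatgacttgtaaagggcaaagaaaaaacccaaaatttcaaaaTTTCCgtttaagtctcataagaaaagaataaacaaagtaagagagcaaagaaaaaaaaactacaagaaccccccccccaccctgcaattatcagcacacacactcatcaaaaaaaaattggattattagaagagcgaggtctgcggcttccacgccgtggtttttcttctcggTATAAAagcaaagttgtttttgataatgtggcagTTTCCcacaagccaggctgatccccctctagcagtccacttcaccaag
Ctla4, chr1:60908775-60909074: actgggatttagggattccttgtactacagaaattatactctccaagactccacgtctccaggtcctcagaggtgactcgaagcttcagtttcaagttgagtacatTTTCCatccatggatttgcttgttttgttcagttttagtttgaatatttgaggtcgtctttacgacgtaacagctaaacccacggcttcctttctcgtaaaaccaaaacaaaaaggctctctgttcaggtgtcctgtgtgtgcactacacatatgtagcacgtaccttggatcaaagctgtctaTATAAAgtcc
Ebi3, chr17:55952373-55952672: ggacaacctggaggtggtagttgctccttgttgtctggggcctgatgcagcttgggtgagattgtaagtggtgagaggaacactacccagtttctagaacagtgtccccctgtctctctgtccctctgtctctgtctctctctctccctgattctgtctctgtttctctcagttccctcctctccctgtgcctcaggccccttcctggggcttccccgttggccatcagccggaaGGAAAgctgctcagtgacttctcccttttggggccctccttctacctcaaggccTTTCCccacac
TATAAA was found once in the Foxp3 window, starting at base -32 from the start site, and once in that of Ctla4, at base 41 after it, and not in that of Ebi3; 13.6% of all 32851 RefSeq windows hold it. GGAAA was found at 2 places in the Foxp3 window, 1 in that of Ctla4 and 2 in that of Ebi3, and 61.3% of all windows hold it. The AP-1 letters TGANTCA (in 7.8% of windows) and the forkhead letters TGTTTAC (in 3.6%) were in none of the 3, on either strand. The windows held 6, 8 and 2 CpG pairs for Foxp3, Ctla4 and Ebi3, against a median of 7. These matches describe letters, since nothing bound to these promoters was measured here.

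Foxp3 transcript was close to nil in both groups. It had 2, 5 and 0 counts in Mdr1+ replicates 1, 2 and 3, and 3, 4 and 1 counts in Mdr1- replicates 1, 2 and 3. Summed, that is 7 counts in Mdr1+ cells, or 0.237 CPM (exact Poisson 95% interval 0.0953 to 0.488), and 8 counts in Mdr1- cells, or 0.303 CPM (0.131 to 0.597). The intervals cover counting error only, and they overlap over most of their width. Foxp3 failed the filter on low counts and so was not tested in the fit used for the other genes. With no filter its edgeR adjusted p was 0.944 (0.905 with replicate pairing), and an exact two-sided permutation test gave p = 0.5. No fold change is given for so few counts. A difference between the groups was not detectable at this depth, the more so in Mdr1+ replicate 3, where a floor of 3 counts equals 1.415 CPM. In such bulk samples, fewer cells of a type and less RNA per cell cannot be told apart.

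The genes that accompany Foxp3 in regulatory cells covered a wide range of levels. Levels between genes were compared as CPM per kilobase of merged exons, with lengths from GENCODE M21, which may differ from the annotation used for counting. On that scale Ctla4 averaged 349 ± 31.3 in Mdr1+ and 377 ± 102 in Mdr1- cells (SD, n = 3 each), and it exceeded Cd4, the coreceptor gene by which the cells were chosen, in 6 of 6 libraries. Foxp3 averaged 0.0412 ± 0.0373 in Mdr1+ and 0.0619 ± 0.0215 in Mdr1- cells (SD, n = 3 each). The lowest library of 7 of the other 8 genes lay above the highest library of Foxp3, and the exception was Ebi3, with 0 counts in Mdr1+ replicate 3.

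Between these ends, Tgfb1 lay at 12.8 to 25.4 CPM per kilobase over the 6 libraries and Nrp1 at 5.60 to 12.4, ranges that did not overlap. Ikzf2, at 1.91 to 7.67, overlapped in range with Nrp1, but Nrp1 was above it in every library. Ikzf2 also overlapped with Ikzf4, at 0.680 to 2.52, and was below Ikzf4 in Mdr1+ replicate 3 only. Gpr83 (0.163 to 1.30) and Lrrc32 (0.101 to 1.27) overlapped in range with each other and with Ikzf4. Within libraries Ikzf4 was above Gpr83 in every one, whereas the place of Lrrc32 against either changed between libraries and is not resolved. Ebi3 ranged from 0 to 7.27 and overlapped with Nrp1 and every gene below it.

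**Figure D1:**
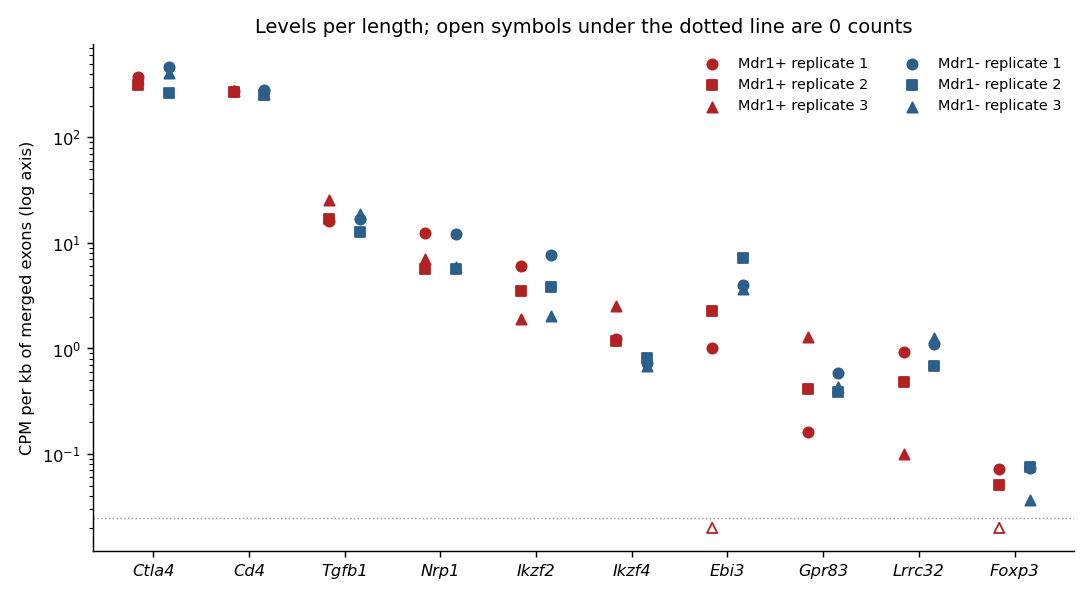
CPM per kilobase of merged exons (log y axis) of the 9 genes and of Cd4 (x axis) in each library, Mdr1+ in red on the left and Mdr1- in blue on the right of each gene, with symbols for replicate numbers; open symbols under the dotted line stand for 0 counts and have no height on the axis. Ctla4 stands beside Cd4 at the top, and Foxp3 reaches at most 0.0756.

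In the comparison of Mdr1+ with Mdr1- cells, 0 of the 8 genes tested passed edgeR's quasi-likelihood test at an adjusted p of 0.05, and 0 passed DESeq2. At an unadjusted p under 0.05 there were 2, Ikzf4 and Ebi3, in edgeR, where 11.9% of all 10897 genes tested were under it. Over all genes, edgeR called 0.275% higher and 1.95% lower in Mdr1+ cells, and DESeq2 0.860% higher and 3.18% lower. With the replicate number as a block, a fit that compares libraries within each number, 1 of the 8, Ebi3, was lower and 0 were higher, against 6.57% of all genes lower and 5.81% higher. The groups did not overlap for 1 gene that was higher in Mdr1+ cells, Ikzf4, and for 1 that was lower, Ebi3, where 8.71% and 11.0% of all tested genes had no overlap in those directions. These shares of 1 in 8 are near the background. The median log2 fold change of the 8 was -0.01, with 0.04 over all tested genes.

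**Figure D2:**
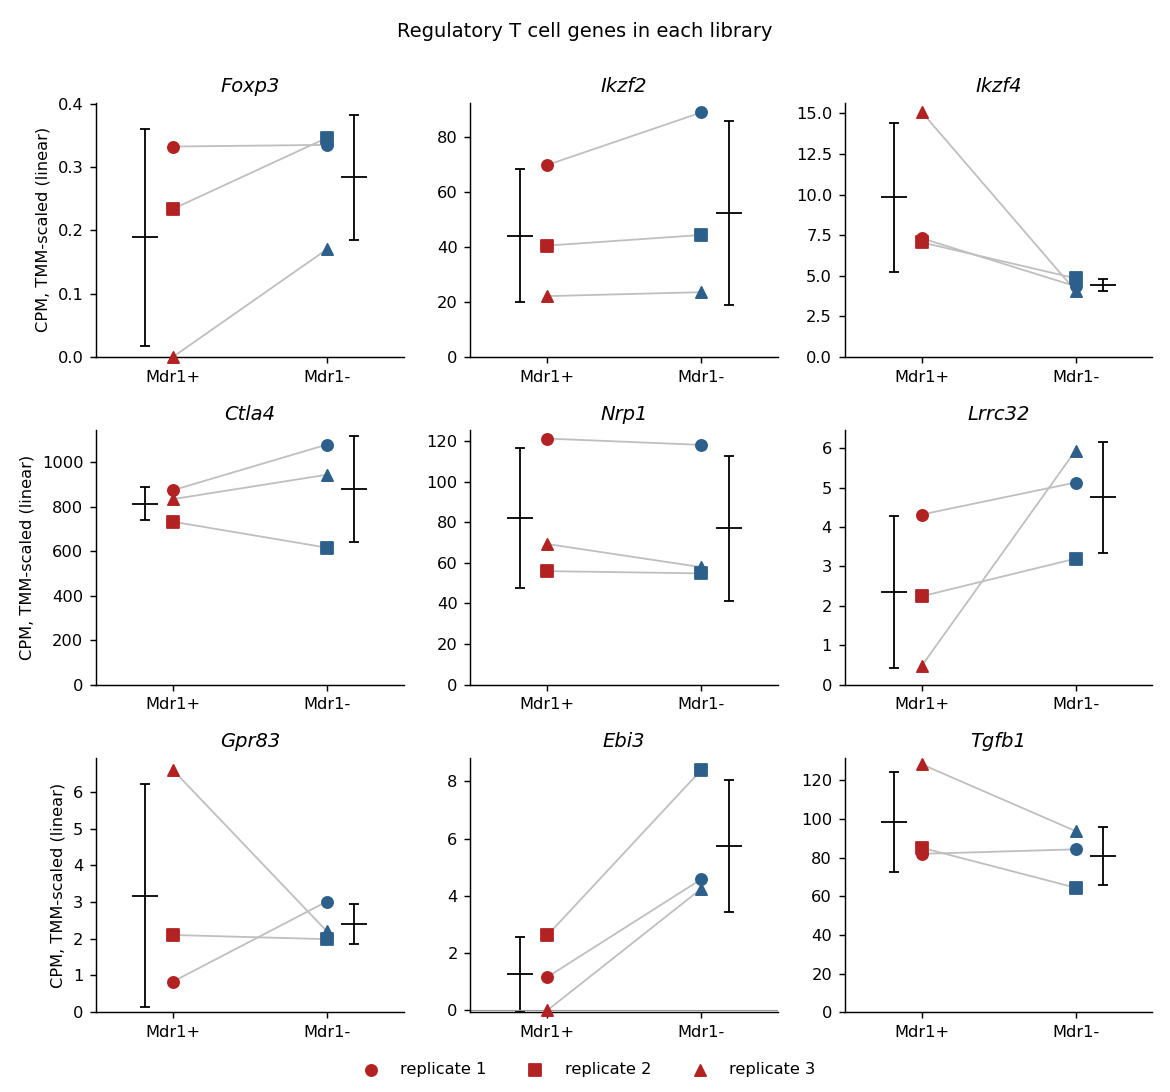
TMM-scaled CPM (linear y axis) of each of the 9 genes in the Mdr1+ (left) and Mdr1- (right) libraries; symbols are replicate numbers, grey lines join libraries that share a number, and black bars give each group's mean ± SD (n = 3). Ikzf4 and Ebi3 are the genes among the tested 8 whose groups do not overlap, and Foxp3 reaches at most 0.346 CPM.

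Among the transcription factors, Ikzf2 varied with the replicate number and little with the sort. Ikzf2 was at 70.0, 40.6 and 22.2 CPM in Mdr1+ replicates 1, 2 and 3, and at 89.1, 44.4 and 23.6 CPM in Mdr1- replicates 1, 2 and 3. Libraries of the same number stood close together, and in each of the 3 pairs the Mdr1+ library was the lower. The means of the 3 numbers spanned 1.78 on the log2 scale, against a median of 0.54 over all tested genes, while the group means differed by 0.19. The log2 fold change was -0.22 ± 0.49 (SE; edgeR adjusted p = 0.909), and with the block -0.21 ± 0.14 (adjusted p = 0.370).

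Ikzf4, whose product Eos acts as a corepressor partner of Foxp3 in mouse regulatory cells, showed the other order. It was at 7.31, 7.06 and 15.1 CPM in Mdr1+ replicates 1, 2 and 3, and at 4.35, 4.84 and 4.08 CPM in Mdr1- replicates 1, 2 and 3. Every Mdr1+ library was above every Mdr1- library, and Mdr1+ replicate 3, where 32 counts stand behind the value, was the highest. Its log2 fold change, 1.08 ± 0.42, did not pass (edgeR adjusted p = 0.328, and 0.130 with the block). Without Mdr1+ replicate 3 it was 0.68 (adjusted p = 0.448). Permuting the 6 libraries (exact, two-sided) gave p = 0.1, the smallest that 3 against 3 allows.

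The remaining Ikaros family genes in the table, Ikzf1, Ikzf3 and Ikzf5, were tested and 0 of 3 passed in edgeR, with or without the block, and 0 in DESeq2; 0 had an unadjusted p under 0.05. Their log2 fold changes were 0.03, 0.21 and 0.34, and the groups overlapped for each.

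Of the receptors, Ctla4, which competes with the costimulatory receptor Cd28 for the ligands Cd80 and Cd86, was at 874, 733 and 834 CPM in Mdr1+ replicates 1, 2 and 3, and at 1079, 616 and 944 CPM in Mdr1- replicates 1, 2 and 3. The Mdr1- libraries lay on both sides of all 3 Mdr1+ libraries. Ctla4 had a log2 fold change of -0.11 ± 0.23 (edgeR adjusted p = 0.897), and with the block of -0.08 ± 0.11 (adjusted p = 0.702).

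Nrp1, a semaphorin and VEGF receptor that marks thymus-derived regulatory cells in mice, was at 121, 55.9 and 69.3 CPM in Mdr1+ replicates 1, 2 and 3, and at 118, 54.8 and 57.9 CPM in Mdr1- replicates 1, 2 and 3. As with Ikzf2, libraries of a number were alike: the numbers spanned 1.11 and the groups 0.11 on the log2 scale. Its fitted log2 fold change was 0.09 ± 0.37 (edgeR adjusted p = 0.953, and 0.628 with the block).

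Lrrc32 encodes GARP, which holds latent TGF-beta on the cell surface. It was at 4.32, 2.24 and 0.472 CPM in Mdr1+ replicates 1, 2 and 3, and at 5.13, 3.20 and 5.94 CPM in Mdr1- replicates 1, 2 and 3. Each Mdr1+ library was below its Mdr1- partner, but the groups overlapped, and the lowest value rests on 1 count. Lrrc32 had a log2 fold change of -0.88 ± 0.61 (edgeR adjusted p = 0.647, and 0.364 with the block). Leaving out Mdr1+ replicate 3 gave -0.58, and leaving out Mdr1+ replicate 1 gave -1.53.

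Gpr83, a G protein-coupled receptor gene, was at 0.831, 2.10 and 6.60 CPM in Mdr1+ replicates 1, 2 and 3, and at 3.01, 1.99 and 2.21 CPM in Mdr1- replicates 1, 2 and 3. The Mdr1+ libraries spread on both sides of the Mdr1- libraries, with 5 counts in replicate 1 and 14 in replicate 3. The log2 fold change was 0.19 ± 0.73 (edgeR adjusted p = 0.953), and it turned to -0.61 without Mdr1+ replicate 3.

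Among the cytokines, Ebi3 showed the largest difference of the 8 tested genes. Ebi3 pairs with Il12a to form interleukin 35, a product of mouse regulatory T cells, and with Il27 to form interleukin 27, a product of myeloid cells. It was at 1.16, 2.62 and 0 CPM in Mdr1+ replicates 1, 2 and 3 (7, 56 and 0 counts), and at 4.58, 8.39 and 4.25 CPM in Mdr1- replicates 1, 2 and 3 (41, 97 and 25 counts). All 3 Mdr1+ libraries lay below all 3 Mdr1- libraries, with a mean of 1.26 ± 1.31 CPM in Mdr1+ and 5.74 ± 2.30 CPM in Mdr1- libraries (SD, n = 3 per group). In replicate 3 the Mdr1- library was 3.00-fold higher if the Mdr1+ library is taken at its floor of 3 counts. That is no strict bound: the exact Poisson 95% interval reached 1.74 CPM in the Mdr1+ library. In the Mdr1- library it ran from 2.75 to 6.27 CPM.

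Without the block the log2 fold change of Ebi3 was -1.84 ± 0.68 and did not pass (edgeR adjusted p = 0.307). With the block Ebi3 fell in Mdr1+ cells (-2.08 ± 0.57, adjusted p = 0.0454). In the block fit it passed without the libraries of replicate 3 (-1.81, adjusted p = 0.00412) and not without those of replicate 1 (-2.45, adjusted p = 0.136) or of replicate 2 (-2.75, adjusted p = 0.230). Permuting the 6 libraries (exact, two-sided) gave Ebi3 p = 0.1, again the smallest possible.

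The partners of Ebi3 were at or near 0. Il12a had 0 counts in all 6 libraries. The upper end of the exact Poisson 95% interval was 0.125 CPM in the Mdr1+ group and 0.140 CPM in the Mdr1- group. Il27 had 0 counts in 5 libraries and 13 counts in Mdr1- replicate 3. Dendritic cells and macrophages also make Ebi3, so their markers stand beside this result. The 8 dendritic cell markers, of which Clec9a was at 0 in every library, summed to 22.9 to 45.3 CPM in Mdr1+ and 57.5 to 78.1 CPM in Mdr1- libraries, most of it from Cd74, the highest of the 8. The myeloid sum was 51.6 CPM in Mdr1- replicate 3 and 3.46 CPM or less in each other library. In Mdr1- replicate 2, the highest for Ebi3, the myeloid sum was 1.64 CPM and the dendritic cell sum 71.7 CPM. The part of such cells in the difference of Ebi3 was not tested.

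Tgfb1 was at 81.9, 85.1 and 128 CPM in Mdr1+ replicates 1, 2 and 3, and at 84.3, 64.4 and 93.7 CPM in Mdr1- replicates 1, 2 and 3. The groups overlapped, and the Mdr1+ library was above its partner in 2 of 3 pairs. The log2 fold change was 0.28 ± 0.23 (edgeR adjusted p = 0.713, and 0.206 with the block). It was 0.05 without Mdr1+ replicate 3 and 0.13 without Mdr1- replicate 2.

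**Figure D3:**
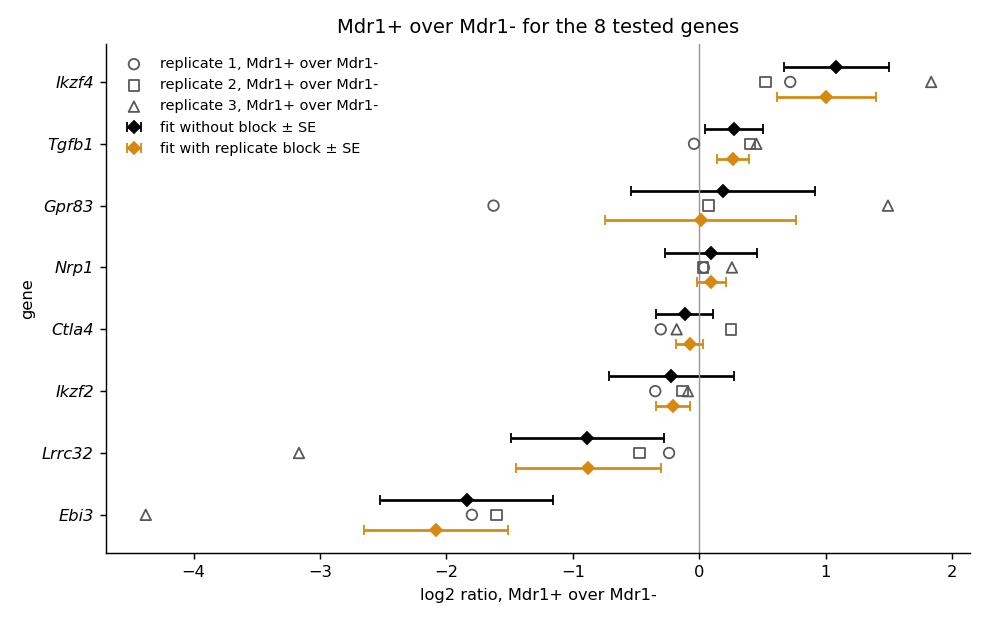
Ratio of Mdr1+ over Mdr1- on the log2 scale (x axis) for the 8 tested genes (y axis); open symbols are pairs of the same replicate number (log2 CPM with a prior count of 2), black diamonds the fitted log2 fold change ± SE without the block and orange diamonds with it. Ebi3 lies left of 0 in all 3 pairs and Ikzf4 right of 0; the leftmost triangle of Ebi3 comes from 0 counts in Mdr1+ and depends on the prior count.

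Among 8707 genes at a mean log2 CPM of 3 or more, those whose log2 CPM followed that of Foxp3 most closely over the 6 libraries were Cox7b (Pearson r = 0.993), Igbp1 (0.990), Ptma (0.990), Esd (0.985) and Snx3 (0.983). The Foxp3 values behind these rest on 0 to 5 counts, and their lowest point is the shallowest library, so the likeness describes sparse counts; 232 of the 8707 genes had an r over 0.9.

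The wider set of regulatory T cell genes moved in both directions. Of 26 other genes of regulatory T cell surface receptors and effector molecules, all tested, 0 passed without the block (edgeR), 7 had an unadjusted p under 0.05 (11.9% of all tested genes did, here and for the lists that follow), and DESeq2 called 2 higher and 1 lower. With the block 6 rose and 2 fell, with 18 not past the threshold, and the median log2 fold change was 0.21 (0.03 over all tested genes). Of all genes tested in each fit, 0.275% rose and 1.95% fell without the block, and 5.81% and 6.57% with it. In DESeq2 the shares were 0.860% and 3.18%. The same shares are the background for the lists that follow. Without the libraries of replicate 2, 3 rose in the block fit, Il10, Tnfrsf1b and Il2ra being lost, and Il2ra was lost without replicate 1 too. The 6 that rose were Il10, an anti-inflammatory cytokine gene, Entpd1 and Nt5e, which encode the ectoenzymes CD39 and CD73 that turn ATP into adenosine, Il2ra, which encodes the receptor chain CD25, Tnfrsf18, which encodes GITR, and Tnfrsf1b, a TNF receptor gene.

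Il10 was at 20.3, 17.1 and 12.3 CPM in Mdr1+ replicates 1, 2 and 3, and at 6.47, 2.51 and 4.42 CPM in Mdr1- replicates 1, 2 and 3. The groups did not overlap, and the log2 fold change with the block was 1.99 ± 0.34 (adjusted p = 0.00666; 0.0502 without it). Entpd1 had a mean of 74.8 ± 17.8 CPM in the Mdr1+ libraries, against 36.9 ± 5.57 CPM in the Mdr1- libraries (SD, n = 3 per group; block adjusted p = 0.00436 in edgeR).

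Il2ra was at 36.1, 28.3 and 52.8 CPM in Mdr1+ replicates 1, 2 and 3, and at 28.0, 17.6 and 30.7 CPM in Mdr1- replicates 1, 2 and 3. It was higher in each of the 3 pairs although the groups overlapped (log2 fold change with the block 0.61 ± 0.16, adjusted p = 0.0428). Nt5e had a mean of 374.5 ± 35.9 CPM in the Mdr1+ libraries, against 249 ± 36.0 CPM in the Mdr1- libraries (SD, n = 3 per group; block adjusted p = 0.00351). Tnfrsf18 stood at 132 ± 14.1 CPM in the Mdr1+ libraries, against 91.2 ± 5.71 CPM in the Mdr1- libraries (SD, n = 3 per group; block adjusted p = 0.0125). The 2 that fell were Cd83, an activation marker, with a log2 fold change of -1.29 ± 0.26, and Folr4, which encodes folate receptor 4 of regulatory and follicular T cells, with -0.70 ± 0.13 (both with the block).

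Of 29 genes known to act on the Foxp3 locus or with its protein, 2 fell without the block, Dnmt1 and Uhrf1, and 0 rose (5 had an unadjusted p under 0.05, and DESeq2 called 0 higher and 2 lower). Over all tested genes 1.95% fell and 0.275% rose without the block. Dnmt1 copies DNA methylation to the new strand after replication and Uhrf1 recruits it, and Dnmt1 is known to keep the Foxp3 locus methylated in conventional T cells. Dnmt1 stood at 309 ± 34.6 CPM in the Mdr1+ libraries, against 592 ± 101 CPM in the Mdr1- libraries (SD, n = 3 per group; log2 fold change -0.94 ± 0.19, edgeR adjusted p = 0.0395). Uhrf1 stood at 23.4 ± 11.0 CPM in the Mdr1+ libraries, against 104.6 ± 28.9 CPM in the Mdr1- libraries (SD, n = 3 per group; -2.24 ± 0.35, adjusted p = 0.0131). The cell cycle markers given above differed in the same direction, and their part in these falls was not tested.

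With the block Ezh2, a Polycomb methyltransferase gene, and Nr4a1, an activation-induced nuclear receptor gene, also fell, and Runx3 (0.50 ± 0.13) and Bach2 (0.86 ± 0.20), a repressor that favours regulatory cell formation in mice, rose, leaving 23 of 29 not past the threshold. In the block fit Runx3 and Bach2 lost their call without replicate 2, Bach2 also without replicate 1, and Ezh2 without replicate 3. The call of Nr4a1 (-0.36, edgeR adjusted p = 0.0473) was lost without replicate 1 (adjusted p = 0.0682), and without the block its value turned to 0.0169 when Mdr1- replicate 1 was left out. The median log2 fold change of these 29 genes was 0.03 with the block. Without the block, the call of Dnmt1 was lost when any 1 of 5 single libraries was left out, the exception being Mdr1- replicate 1, and that of Uhrf1 without Mdr1- replicate 3.

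In the TGF-beta pathway, 17 of 25 genes other than Tgfb1 and Lrrc32 were tested. Without the block 0 passed (edgeR; 4 had an unadjusted p under 0.05, and DESeq2 called 1 higher and 1 lower). With it 6 rose and 1 fell, where 5.81% of all tested genes rose and 6.57% fell. The median log2 fold change over the 17 was 0.30. Those that rose were the receptor genes Tgfbr2 (0.38 ± 0.08) and Tgfbr3 (0.68 ± 0.13) and 4 genes of proteins that damp the signal: Smad7 (0.78 ± 0.10), Skil (0.77 ± 0.10), Smurf2 (0.50 ± 0.09) and Tgif1 (0.38 ± 0.10). The gene that fell was the ligand Tgfb3, at 9.64, 7.34 and 8.96 CPM in Mdr1+ and 19.0, 19.3 and 15.3 CPM in Mdr1- replicates 1, 2 and 3 (-1.09 ± 0.25, adjusted p = 0.0234). In the block fit the call of Tgfb3 was lost without replicate 1 and without replicate 2, and that of Tgif1 without replicate 2. Smad7, an inhibitor that TGF-beta itself induces, was at 688, 475 and 574 CPM in Mdr1+ and 471, 228 and 342.5 CPM in Mdr1- replicates 1, 2 and 3, and the groups did not overlap.

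**Figure D4:**
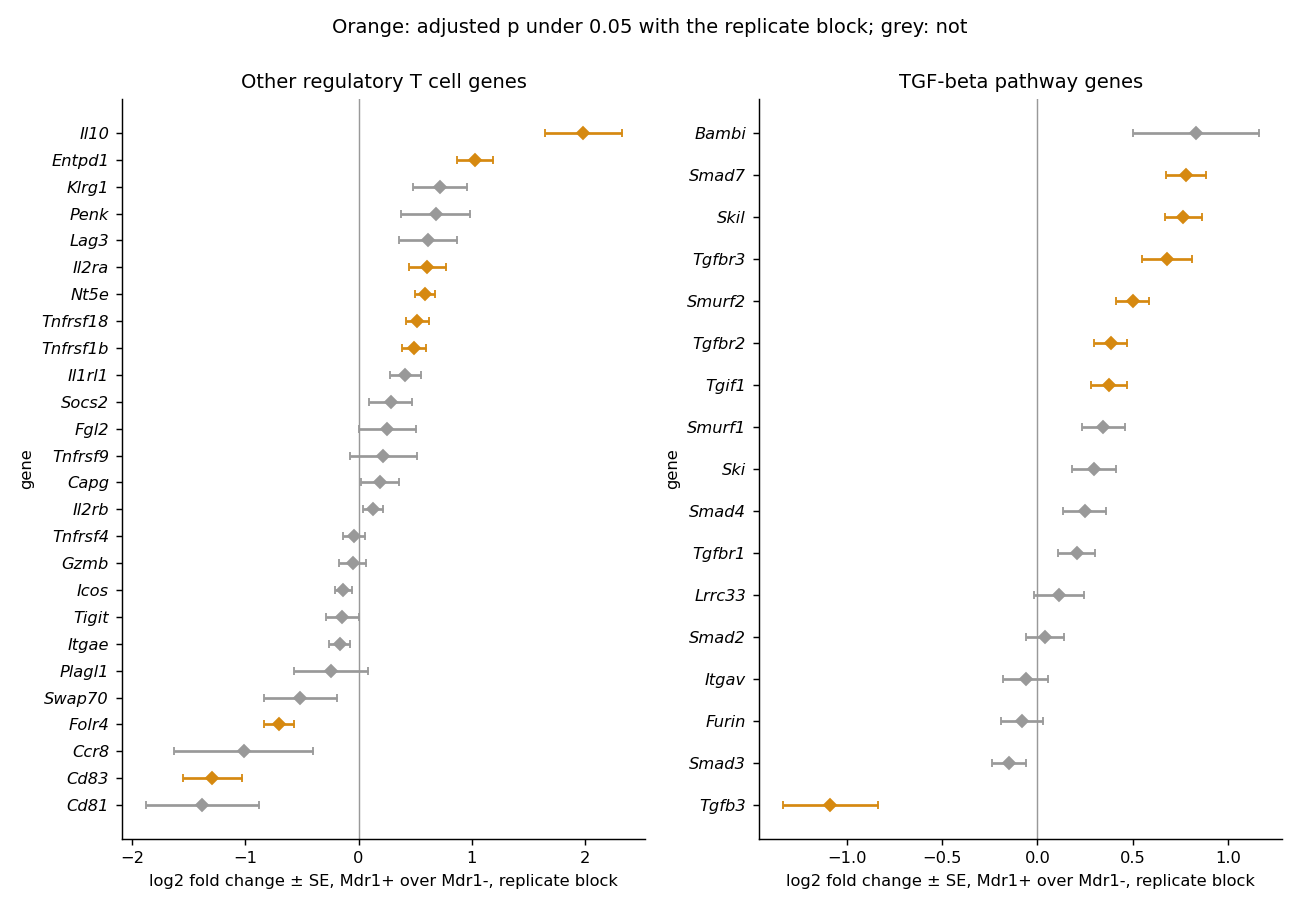
Log2 fold change of Mdr1+ over Mdr1- ± SE in the fit with the replicate block (x axis) for the tested genes (y axis) of 2 lists, other regulatory T cell genes (left) and TGF-beta pathway genes (right); orange marks an adjusted p under 0.05. On the left 6 genes rose and 2 fell, and on the right 6 rose and 1 fell. Over all tested genes 5.81% rose and 6.57% fell in this fit.

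Of 5 tested partner and receptor genes of the interleukin 12 family, out of 9, 0 passed without the block (edgeR; 2 had an unadjusted p under 0.05, and DESeq2 called 0 higher and 1 lower). With it Il27ra (0.33 ± 0.09), a receptor chain for interleukin 27, rose, and Il6st (-0.43 ± 0.11), a chain shared by that receptor and others, and Il23r (-1.54 ± 0.26), a chain of the interleukin 23 receptor, fell. Of 12 genes of the CD28 family, its ligands and Ctla4 trafficking, 0 passed without the block (edgeR; 1 had an unadjusted p under 0.05, and DESeq2 called 0 higher and 1 lower), and with it the ligand gene Cd274 rose (0.45 ± 0.12) and the inhibitory receptor genes Btla (-1.03 ± 0.09) and Pdcd1 (-0.61 ± 0.14) fell. Without replicate 2 the block fit called 0 higher and 1 lower in each of these lists: Il27ra, Il6st, Cd274 and Pdcd1 were lost, and Il6st and Pdcd1 were lost without replicate 1 too. Over all tested genes 5.81% rose and 6.57% fell in the block fit of all 6 libraries.

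Of 6 tested neuropilin, plexin and semaphorin genes other than Nrp1, out of 10, 1 fell without the block, the paralog Nrp2 (edgeR; 4 had an unadjusted p under 0.05, and DESeq2 called 0 higher and 1 lower). Over all tested genes 1.95% fell without the block. Nrp2 was at 1.495, 1.68 and 2.83 CPM in Mdr1+ replicates 1, 2 and 3, and at 6.25, 10.3 and 18.3 CPM in Mdr1- replicates 1, 2 and 3, with no overlap (log2 fold change -2.64 ± 0.52, adjusted p = 0.0364). Its call was lost when any 1 of 5 single libraries was left out, Mdr1- replicate 1 being the exception, and held with the block (adjusted p = 0.00381). The highest Nrp2 value was in the library with the highest myeloid sum, Mdr1- replicate 3. In Mdr1- replicate 2 Nrp2 was at 10.3 CPM with a myeloid sum of 1.64 CPM. In Mdr1+ replicate 3 Nrp2 was at 2.83 CPM with a myeloid sum of 2.83 CPM. The part of myeloid or other cell types in the difference of Nrp2 was not tested. With the block Sema4a, a semaphorin that binds Nrp1 in mice, rose (0.96 ± 0.17, adjusted p = 0.00784).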

How the data were processed

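The values are raw read counts per gene symbol, 1 column per library, as deposited by the authors in 1 table of 23366 genes. Per the labels' protocols the libraries were made from total RNA with a stranded kit. Per the submitters' processing notes the tools were TopHat, HTSeq and DESeq2 and the build mm9; their versions, the gene annotation and HTSeq's strand mode were not given in the sources used here, so reads of overlapping and antisense genes may be mixed. HTSeq's classes of unassigned reads, given for replicates 1 and 2, stayed out: alignments that were not unique took 67.0% to 73.2% of all entries, and those in no feature 13.2% to 19.7%. The columns of replicate 3 are deposited in case-insensitive order of the gene names, which moves 81.3% of names. They were put back, after which their Spearman correlation with replicates 1 and 2 was 0.926 to 0.962 (0.424 to 0.460 before).

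Groups and replicate numbers came from the sample titles. Tests used edgeR 4.0.16 (R 4.3.3) with TMM scaling, filterByExpr by group (10897 genes left), the quasi-likelihood F test (robust, sort group alone in the model), and Benjamini-Hochberg adjustment over all tested genes, threshold 0.05; standard errors are the log2 fold change divided by the square root of F. DESeq2 1.42.0 was an alternative. The code was tested on simulated data. Same-numbered libraries had correlated deviations from their group means (r = 0.41, 0.57 and 0.21 over tested genes), which pairs the libraries by number, a reading that comes from the data and not from the labels. Values from the fit with the replicate block are given where a call changed. Named genes are the 9 members and every gene of the lists past the threshold with or without the block, and the 5 genes most like Foxp3. Other Ikaros genes, partners of Ebi3 and marker genes are named outside this rule, chosen after their values were seen. The members and lists were chosen with earlier results of these data known.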

Additional observations from a re-analysis of the deposited data

How the results depend on the processing

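Under all 19 alternatives 0 of the regulatory T cell genes were called higher in Mdr1+ cells. Called lower was 1, Ebi3, with the replicate block, with the block and no filter (chosen after seeing the data) and with the block without replicate 3, and 0 in the others. Over the whole table, 30 genes were called higher and 212 lower. These became 633 and 716 with the replicate block, 991 and 1051 with the block and no filter, 103 and 381 with DESeq2, 52 higher with no filter, and 0 and 0 with replicate 3 as deposited. Leaving out libraries or numbers gave 0 to 15 higher and 0 to 196 lower, and with the block 259 to 1131 higher (436 without replicate 1) and 392 to 1347 lower (694 without replicate 1). Among log2 fold changes near 0 the direction turned when 1 library was left out: Ikzf2 ranged from -0.73 to 0.35 (0.06 without Mdr1+ replicate 3), Ctla4 from -0.315 to 0.0275, Nrp1 from -0.35 to 0.51 (-0.10 and -0.07 without Mdr1- replicate 2 and 3), and Nr4a1 from -0.73 to 0.0169. Over all alternatives Gpr83 ranged from -0.66, without both libraries of replicate 3, to 0.88, without both libraries of replicate 1. It was -0.61 without Mdr1+ replicate 3, and -0.058 and -0.57 with the block without replicate 2 and 3. Ikzf4 was -0.35 with replicate 3 as deposited, where the values stand beside other genes' names. The cause of the other shifts was not tested. Depth limits Foxp3, Gpr83, Lrrc32 and Ebi3, which have 14 counts or fewer in the shallowest library.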
